A study of Mus musculus with 8 samples.

Results

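The chromatin contacts of 8 genes of the naive pluripotency network were followed in mouse embryonic stem cells: Esrrb, Tfcp2l1, Tbx3, Nr5a2, Zfp42, Nr0b1, Sall4 and Tcl1. A contact belonged to a gene when 1 of its ends, called an anchor, lay within 5 kb of an annotated transcription start of that gene. Of the 415681 contacts listed for the series, called loops here, 342 met this rule. Sall4 had 70 loops, Esrrb 62, Tfcp2l1 48, Tbx3 and Nr5a2 45 each, Tcl1 34, Zfp42 25 and Nr0b1 13. Most loops held few counts, and only 68 of the 342 reached 5 counts in 2 or more libraries and could be tested one by one.

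The counts came from H3K27ac HiChIP. It combines cutting of chromatin with micrococcal nuclease, joining of neighbouring ends, and pull-down of fragments carrying acetylated lysine 27 of histone H3. This mark lies on active promoters and enhancers, so a count can rise with acetylation of either end or with their proximity, and the counts do not tell these apart. In such bulk libraries, fewer cells with a contact and fewer contacts per cell cannot be told apart either. There were 4 lines with 2 technical replicates each: B6 (strain C57BL/6J), D2 (DBA/2J), and a reciprocal congenic pair. B6-13D2, labelled B6.D2-(rs30079041-rs51756099)/Bakr, carried a DBA/2J interval of chromosome 13 on the C57BL/6J background. D2-13B6, labelled D2.B6-(rs29224292-rs13469455)/Bakr for its samples, carried the C57BL/6J interval on the DBA/2J background, and the series description named another marker for the far end of that interval. All lines were grown with serum, LIF, the MEK inhibitor PD0325901 and the GSK3 inhibitor CHIR99021. Each genotype was 1 cell line and the replicates were technical, so a difference between genotypes and a difference between 1 line and another cannot be told apart, and p-values weigh differences against the spread between libraries of 1 line.

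Library totals ran from 737955 to 1425304 counts. Values are given as CPM, each count scaled to its library total and TMM factor, with separate factors for genes and for single loops. In D2-13B6, chromosome 11 took 13.9% to 14.0% of counts, and in the other lines 10.0% to 10.6%. None of the 8 genes lies on chromosome 11 or 13. Anchors of the embryonic stem cell markers Pou5f1, Sox2, Nanog, Fgf4 and Dppa4 together reached 1942 to 2673 CPM in the 8 libraries. Of the fibroblast markers 4 of 6 had any loop, together 50.3 to 83.3 CPM, with Thy1 and Twist1 at 0. Of the primitive endoderm markers only Pdgfra had a loop, 4.50 to 12.5 CPM, and Gata4, Gata6, Sox17, Foxa2 and Sox7 were at 0. Of the trophectoderm markers only Cdx2 had one, 8.01 to 15.0 CPM, and Eomes, Elf5, Gata3 and Tfap2c were at 0. Of the markers of 2-cell-like cells 2 of 4 had loops, 3.00 to 7.93 CPM, and Zscan4c and Zscan4d were at 0.

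Naive pluripotency is the state of the early epiblast, held in culture by LIF, which acts through the factor STAT3, and by inhibition of the kinases MEK and GSK3. The genes studied here sit around the core factors OCT4, SOX2 and NANOG, and several are known to be direct outputs of the culture signals: Tfcp2l1 of LIF and STAT3, and Esrrb of GSK3 inhibition. Distal enhancers of such genes are bound by several of these factors at once, and HiChIP reports which acetylated distal sites contact which promoter.

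The promoter anchors, on GRCm38 (mm10) and counted from 1, differed in width. Esrrb had chr12:86450001-86525000 (75 kb), Sall4 chr2:168740001-168795000 (55 kb), Tfcp2l1 chr1:118615001-118665000 (50 kb), Tbx3 chr5:119655001-119690000 (35 kb), Zfp42 chr8:43290001-43310000 and Nr0b1 chrX:86180001-86200000 (20 kb each), Nr5a2 chr1:136945001-136960000 (15 kb) and Tcl1 chr12:105220001-105230000 (10 kb). The Esrrb anchor lay in the 3′ part of the gene and held 2 of its 5 annotated starts, at positions 86470117 and 86504409. Both RefSeq starts of Esrrb, at 86361117 and 86421644, lay outside it. The Nr5a2 anchor held 3 of 6 annotated starts. The Sall4 anchor also held a start of the neighbouring gene Atp9a, in its bin chr2:168740001-168745000, so its contacts belong to both genes by the rule used here. A loop with both ends in 1 anchor counts contacts inside that anchor. Listed bins started at least 10 kb apart, so the 10-kb Tcl1 anchor could have none.

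Sequences are shown for the promoters that lie in an anchor and match a pluripotency motif, and for distal or internal sites whose contacts are described below. RefSeq promoters of GRCm38.p6 were given for 6 of the 8 genes, 8 promoters in all, and none was used for Tbx3 and Sall4. Both strands were searched for 4 motifs: the octamer ATGCAAAT bound by OCT4, the half-site TCAAGGTCA shared by the nuclear receptors ESRRB and NR5A2, the STAT site TTCCNGGAA and the KLF site GGGNGTGG. Capitals mark matches, which say only that these letters are present. The lines below give the 250 bases before the start, read along the gene, for Zfp42 (chr8:43307010-43307259, minus strand), Tfcp2l1 (chr1:118627695-118627944, plus strand) and the Nr5a2 start that lies inside the anchor (chr1:136953631-136953880, minus strand).
Zfp42 promoter: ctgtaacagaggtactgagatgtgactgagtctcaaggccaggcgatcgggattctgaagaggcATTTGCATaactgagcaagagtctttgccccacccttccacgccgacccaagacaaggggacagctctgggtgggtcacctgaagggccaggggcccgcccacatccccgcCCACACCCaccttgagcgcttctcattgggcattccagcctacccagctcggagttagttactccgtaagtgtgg
Tfcp2l1 promoter: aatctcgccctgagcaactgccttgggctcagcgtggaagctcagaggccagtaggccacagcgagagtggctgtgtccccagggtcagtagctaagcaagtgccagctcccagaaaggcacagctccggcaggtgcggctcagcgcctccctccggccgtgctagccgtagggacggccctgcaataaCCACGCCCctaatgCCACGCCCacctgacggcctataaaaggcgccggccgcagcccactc
Nr5a2 promoter: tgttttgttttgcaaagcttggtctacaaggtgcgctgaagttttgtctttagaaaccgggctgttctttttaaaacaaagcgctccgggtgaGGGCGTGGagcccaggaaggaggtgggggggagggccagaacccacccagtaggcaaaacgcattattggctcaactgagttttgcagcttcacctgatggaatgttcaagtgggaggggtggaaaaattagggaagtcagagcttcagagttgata

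The Zfp42 promoter held an octamer and a KLF site, the Tfcp2l1 promoter 2 KLF sites and the Nr5a2 promoter 1 KLF site. Over 32817 RefSeq promoters cut to the same 250 bases, 1.6% held an octamer, 0.387% the half-site, 0.914% the STAT site and 15.9% a KLF site. None of the 8 promoters held the half-site or the STAT site, which says only that these letters are not in these windows.

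The next 4 windows are plus-strand sequence with 30 bases on each side of a match. They show the most contacted 5-kb bin of the chief partner of Nr5a2 (chr1:136979855-136979923, half-site) and of Tfcp2l1 (chr1:118674387-118674454, octamer). Both are called distal windows only because they lie outside the promoter anchor. The others are 2 of the 4 half-sites in 1 bin inside the Esrrb anchor (chr12:86502029-86502097 and chr12:86503521-86503589).
Nr5a2 distal window: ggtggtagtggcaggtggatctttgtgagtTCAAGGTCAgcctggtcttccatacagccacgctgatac
Tfcp2l1 distal window: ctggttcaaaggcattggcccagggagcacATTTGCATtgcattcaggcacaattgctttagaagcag
Esrrb internal window, first: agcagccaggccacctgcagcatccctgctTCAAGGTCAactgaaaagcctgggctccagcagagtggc
Esrrb internal window, other: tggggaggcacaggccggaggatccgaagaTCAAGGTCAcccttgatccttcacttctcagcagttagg

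Of the 54436 5-kb bins of all anchors, 27.2% held an octamer and 14.9% at least 1 half-site. The matches in the Nr5a2 and Tfcp2l1 windows lay in sequence that the genome file marks as repeat, with 100% of their bases soft-masked. The matches in both Esrrb windows shown lay outside such sequence, with 0% soft-masked. The other 2 half-sites of that Esrrb bin, which starts at 86500001, were fully soft-masked.

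Scaled by anchor length, the 8 genes fell into an upper and a lower group. The split followed anchor width, 35 to 75 kb in the upper group and 10 to 20 kb in the lower. The median tested gene had 10 kb of anchor. Contacts inside the anchor are included, and a 10-kb anchor could have none, so this scale does not make wide and narrow anchors fully comparable. Mean contact density over the 4 lines was 11.5 CPM per kb of anchor at Tfcp2l1, 11.2 at Tbx3, 10.6 at Sall4 and 9.27 at Esrrb, against a median of 5.91 over the 11612 protein-coding genes that reached 10 counts in 2 or more libraries. It was 5.08 at Zfp42, 3.93 at Nr5a2, 3.10 at Tcl1 and 0.704 at Nr0b1. The percentiles among those genes ran from 83.0 for Tfcp2l1 and 72.2 for Esrrb down to 43.0 for Zfp42, 32.1 for Nr5a2, 23.7 for Tcl1 and 0.405 for Nr0b1.

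The order within the upper group was not fixed across lines. Line means of density spanned 11.03 to 12.2 CPM per kb at Tfcp2l1, 9.06 to 12.6 at Tbx3, 8.56 to 11.6 at Sall4 and 8.23 to 10.9 at Esrrb, so Tbx3 and Sall4 overlapped with each other and with both of the others. Tfcp2l1 lay above Esrrb in every line, and their ranges did not overlap. The ranges of Zfp42, 4.49 to 6.22, and Nr5a2, 3.17 to 4.92, overlapped as well, and so did those of Nr5a2 and Tcl1, 2.73 to 3.41. Nr0b1, at 0.471 to 0.927 CPM per kb, was below the others in every line.

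The genes also differed in where their contacts ended. Of the counts that left the anchor, called outgoing, 94.9% at Tbx3 ended at an anchor with no protein-coding start (exact 95% binomial interval 94.0% to 95.7%, covering counting error only). The share was 81.6% at Nr5a2 (77.6% to 85.1%), 68.9% at Nr0b1 (53.4% to 81.8%), 68.2% at Sall4 (66.4% to 69.9%) and 66.3% at Tfcp2l1 (64.2% to 68.4%). It was 59.7% at Tcl1 (53.4% to 65.7%), 51.4% at Zfp42 (46.8% to 56.0%) and 32.3% at Esrrb (30.3% to 34.3%). The median over the 11612 genes was 23.3%, so the share of each of the 8 was above it.

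**Figure D1:**
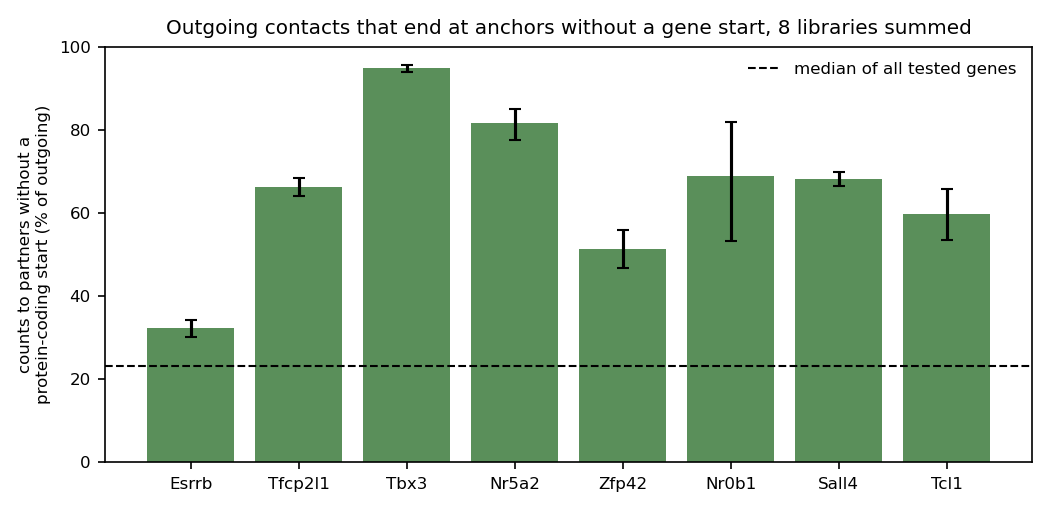
Share of outgoing counts (in %, vertical axis) of each of the 8 genes that ended at anchors without a protein-coding start, all 8 libraries summed. Bars are shares, error bars exact 95% binomial intervals, and the dashed line the median of 11612 genes, 23.3%. Tbx3 had the highest share, 94.9%, and Esrrb the lowest, 32.3%.

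Distance separated the genes too, measured here as the gap between the edges of the anchors. At Tbx3 83.3% of outgoing counts crossed a gap under 100 kb, at Tfcp2l1 55.2% and at Sall4 54.6%, against a median of 55.5% over all tested genes. At Esrrb only 3.32% did, and 44.6% crossed a gap of at least 500 kb, where the median gene had 14.5%. Outgoing counts were 32.1% to 41.8% of the Esrrb counts per library. The Esrrb anchor spans 75 kb, against 10 kb at the median gene, so nearer contacts could fall inside it and are not in these shares. Nr5a2 had 43.0% under 100 kb, Zfp42 42.8%, Tcl1 11.6% and Nr0b1 2.22%, the last being 1 of 45 counts.

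Esrrb encodes an orphan nuclear receptor that activates much of the naive network. Its anchor had 679 and 622 CPM in B6, 564 and 670.4 in B6-13D2, 715 and 677 in D2, and 776 and 859 in D2-13B6. The 2 D2-13B6 libraries were the highest of the 8, and D2 replicate 2 lay just below B6 replicate 1, so the backgrounds overlapped.

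The study's 4 lines allow 2 averaged contrasts: the background effect, D2 minus B6 background over both interval genotypes, and the interval effect, D2 minus B6 allele of the chromosome 13 interval over both backgrounds. All are log2 fold changes from edgeR's quasi-likelihood test, with p-values adjusted by Benjamini-Hochberg over all tested genes or loops and called at 0.05. The background effect was called for 4 of the 8 genes, and over all genes 24.2% were called. Esrrb and Tbx3 were higher on the D2 background, as were 12.5% of all genes, and Nr5a2 and Sall4 lower, as were 11.7%. Between the parental lines alone, D2 against B6, the values of Esrrb, Tbx3 and Nr5a2 were smaller and not called. They were 0.10 (adjusted p = 0.654), 0.11 (adjusted p = 0.648) and -0.17 (adjusted p = 0.710), while Sall4 was called there too, as given below.

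For Esrrb the background effect was 0.25 ± 0.07 (SE; adjusted p = 0.00861) and the interval effect -0.15 ± 0.07 (SE; adjusted p = 0.209). The effect was larger for contacts inside the anchor, which had 435 and 364 CPM in B6, 322 and 409.9 in B6-13D2, 438 and 468 in D2, and 521 and 579.8 in D2-13B6. All 4 libraries of the D2 background were above all 4 of the B6 background, and the background effect was 0.38 ± 0.08 (SE; adjusted p = 0.000355). With outgoing contacts alone the Esrrb effect was 0.07 (adjusted p = 0.622) and not called. The gene-level call was also lost at 0.19 (adjusted p = 0.0755) without B6-13D2 replicate 1, 0.21 (adjusted p = 0.0841) without D2 replicate 1 and 0.21 (adjusted p = 0.0860) without D2-13B6 replicate 2. The call for contacts inside the anchor held without any 1 of the 8 libraries, at 0.28 to 0.48.

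The chief outgoing partner of Esrrb was chr12:86860001-86950000, 435 kb downstream (from the first start in the anchor to the centre of the partner, as below), which holds the starts of Cipc and Irf2bpl and took 571 counts, 26.7% of outgoing counts. It had 64.9 and 58.5 CPM in B6, 65.9 and 66.5 in B6-13D2, 68.4 and 70.4 in D2, and 64.2 and 79.2 in D2-13B6. These values overlapped between backgrounds, with an effect of 0.14 ± 0.14 (SE; adjusted p = 0.649). The next partner, chr12:86785001-86840000, held no gene and lay 21.2 kb from Lrrc74a, the nearest protein-coding gene, and took 293 counts. Its loop had an effect of 0.26 ± 0.19 (SE; adjusted p = 0.469). An intronic anchor of Esrrb itself, chr12:86395001-86400000, contacted the promoter anchor with 71 counts, and the loop to the anchor with starts of Ahsa1 and Vipas39, 832 kb downstream, had 265.

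Nr5a2, the liver receptor homologue, is another nuclear receptor of the network and can stand in for Oct4 in reprogramming. Its anchor had 58.3 and 63.4 CPM in B6, 76.9 and 70.6 in B6-13D2, 57.2 and 50.4 in D2, and 45.2 and 50.01 in D2-13B6. The B6-13D2 libraries were the highest and the D2-13B6 libraries among the lowest, and all 4 libraries of the D2 background lay below all 4 of the B6 background. For Nr5a2 the background effect was -0.39 ± 0.14 (SE; adjusted p = 0.0339) and the interval effect 0.23 ± 0.14 (SE; adjusted p = 0.359).

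The call rested on few counts, 40 to 94 per library. It was lost at -0.38 (adjusted p = 0.0680) without B6 replicate 2, -0.37 (adjusted p = 0.0687) without B6-13D2 replicate 1, -0.37 (adjusted p = 0.103) without D2 replicate 2, -0.36 (adjusted p = 0.117) without D2-13B6 replicate 1 and -0.43 (adjusted p = 0.0581) without D2-13B6 replicate 2. It was also lost with a scaling factor per chromosome, at -0.34 (adjusted p = 0.0747), with DESeq2, at -0.41 (adjusted p = 0.188), and with outgoing loops alone, at -0.37 (adjusted p = 0.0656).

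The chief partner of Nr5a2, chr1:136975001-136985000, lay 26.4 kb upstream, 14.6 kb from the nearest gene, which is Nr5a2 itself, and took 154 counts, 35.0% of outgoing counts. The half-site of the Nr5a2 distal window lies in its bin with the most contacts. The loop had 25.7 and 19.9 CPM in B6, 22.7 and 24.4 in B6-13D2, 20.1 and 15.6 in D2, and 7.30 and 14.4 in D2-13B6. D2 replicate 1 was level with B6 replicate 2, and the other D2-background libraries were below all B6-background libraries. Its background effect was -0.74 ± 0.25 (SE; adjusted p = 0.0377). It was lost at -0.65 (adjusted p = 0.204) without B6 replicate 1, -0.70 (adjusted p = 0.116) without B6-13D2 replicate 2, -0.84 (adjusted p = 0.0552) without D2 replicate 1, -0.65 (adjusted p = 0.146) without D2 replicate 2 and -0.53 (adjusted p = 0.260) without D2-13B6 replicate 1. It was also lost with a scaling factor per chromosome, at -0.67 (adjusted p = 0.0722), with DESeq2, at -0.74 (adjusted p = 0.333), and with no filter on low counts, at -0.74 (adjusted p = 0.435). The next partner, chr1:136670001-136715000, held no gene and had 73 counts, with an effect of -0.73 ± 0.36 (SE; adjusted p = 0.231).

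Nr0b1, on the X chromosome, encodes DAX1, an unusual nuclear receptor that lacks a DNA-binding domain and represses other receptors. Its anchor held 4 to 27 counts per library and had 13.5 and 5.28 CPM in B6, 19.2 and 9.76 in B6-13D2, 12.6 and 15.1 in D2, and 19.7 and 17.4 in D2-13B6. The replicates of B6 and of B6-13D2 differed by about as much as the lines did. Its background effect was 0.45 ± 0.30 (SE; adjusted p = 0.298) and the interval effect 0.02 ± 0.30 (SE; adjusted p = 0.976), and neither was called. With outgoing contacts alone the background effect was 1.25 ± 0.52 (SE; adjusted p = 0.0719), not called, on 1 to 12 counts per library. Of the 122 counts of Nr0b1, 77 lay inside the anchor, and no outgoing loop had more than 8 counts, so a distal partner could not be compared at this depth. The loops with 8 counts each went to chrX:86015001-86020000 and chrX:86050001-86055000.

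Tbx3 encodes a T-box factor that supports the naive network. Its anchor had 407 and 366 CPM in B6, 314 and 319.8 in B6-13D2, 388 and 447 in D2, and 402 and 482 in D2-13B6. The B6-13D2 libraries were the lowest, D2 replicate 2 and D2-13B6 replicate 2 the highest, and the other B6 and D2-background libraries overlapped. The background effect was 0.29 ± 0.08 (SE; adjusted p = 0.00417) and the interval effect -0.19 ± 0.08 (SE; adjusted p = 0.143). The call was lost at 0.22 (adjusted p = 0.0940) without D2 replicate 2 and 0.23 (adjusted p = 0.0838) without D2-13B6 replicate 2.

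A single gene-free region 73.2 kb upstream, chr5:119575001-119620000, took 1428 counts, 55.4% of the outgoing counts of Tbx3, where the chief partner of the median gene took 24.6%. The loop to it had 169.9 and 159 CPM in B6, 113 and 139 in B6-13D2, 176 and 177 in D2, and 185 and 221 in D2-13B6. All 4 libraries of the D2 background were above all 4 of the B6 background, and B6-13D2 was the lowest line. The background effect was 0.38 ± 0.11 (SE; adjusted p = 0.00637), lost at 0.31 (adjusted p = 0.0813) without B6-13D2 replicate 1 and 0.34 (adjusted p = 0.0711) without D2-13B6 replicate 2. DESeq2 gave 0.38 (adjusted p = 0.0747), and the fit with no filter on low counts 0.39 (adjusted p = 0.111), and neither called it.

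Within that region the bins chr5:119585001-119590000 and chr5:119580001-119585000 had the most contacts with the promoter anchor, 252 and 246 counts, 83.2 and 88.2 kb upstream of the first start. Contacts inside the Tbx3 anchor had 104 and 66.4 CPM in B6, 72.1 and 48.7 in B6-13D2, 83.7 and 100.4 in D2, and 86.1 and 121 in D2-13B6. The libraries overlapped, with B6 replicate 1 second only to D2-13B6 replicate 2. For these contacts the background effect was 0.44 ± 0.13 (SE; adjusted p = 0.0141), lost at 0.31 (adjusted p = 0.181) without B6 replicate 2, 0.30 (adjusted p = 0.227) without B6-13D2 replicate 2, 0.39 (adjusted p = 0.126) without D2 replicate 2 and 0.33 (adjusted p = 0.199) without D2-13B6 replicate 2. It was lost too with DESeq2, at 0.44 (adjusted p = 0.262), and with no filter on low counts, at 0.45 (adjusted p = 0.178). The other near partners, chr5:119700001-119725000 downstream with 447 counts and chr5:119625001-119635000 upstream with 273, held no gene, and their effects were 0.23 ± 0.16 (SE; adjusted p = 0.424) and 0.18 ± 0.19 (SE; adjusted p = 0.663).

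**Figure D2:**
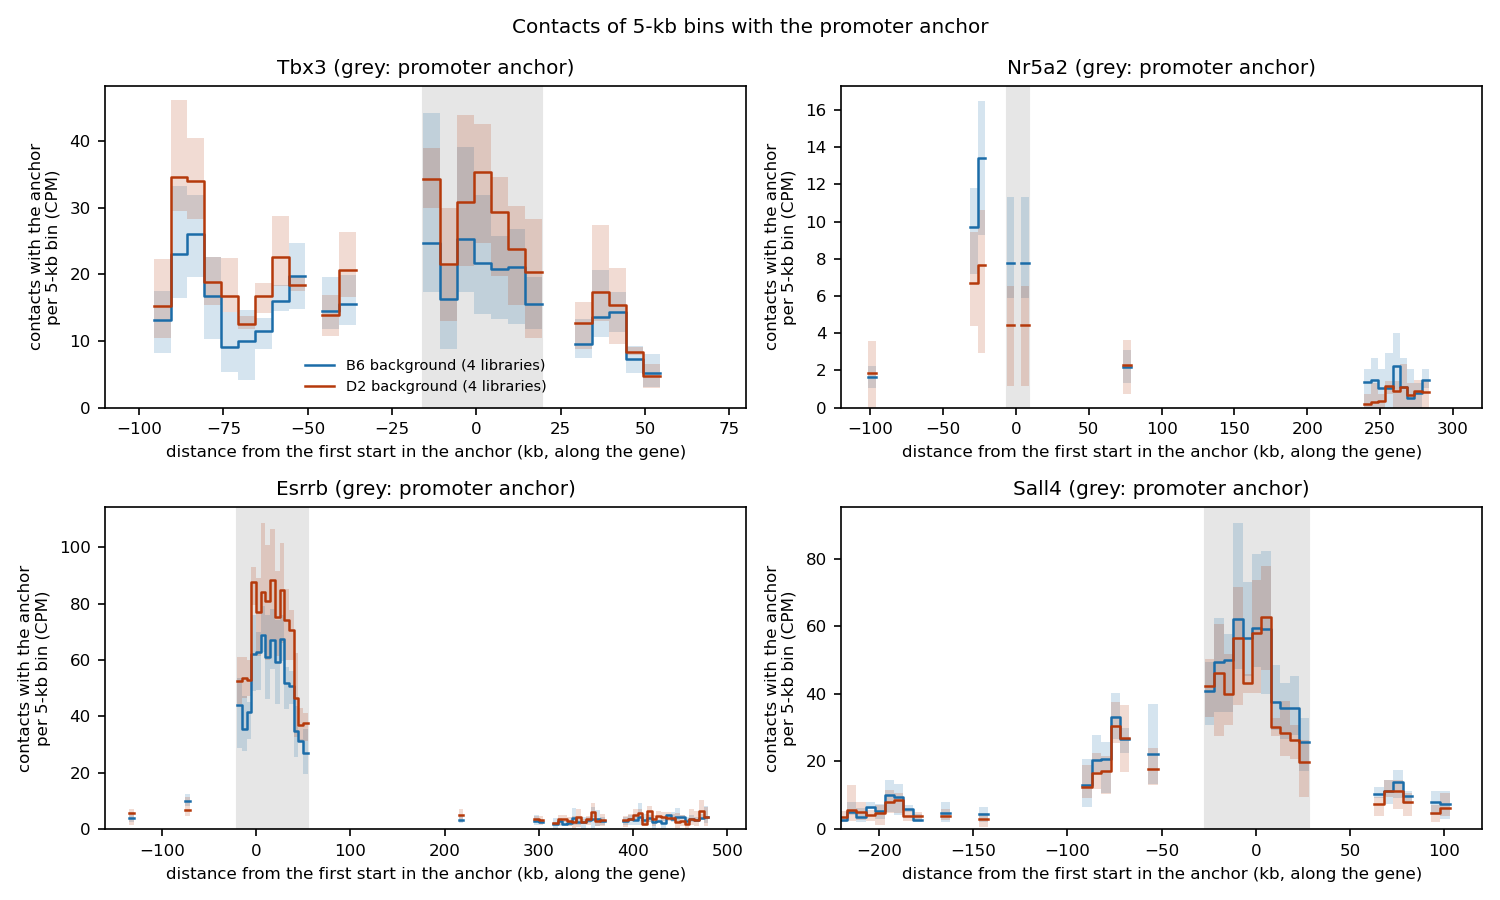
Contacts with the promoter anchor (CPM, vertical axis) of each 5-kb bin around Tbx3, Nr5a2, Esrrb and Sall4, against distance from the first start in the anchor (kb, along the gene). Lines are means and shaded bands the lowest to highest value of 4 libraries per background, grey areas are promoter anchors, and bins with fewer than 5 counts in all are blank. At Tbx3 and inside the Esrrb anchor the D2 mean ran above the B6 mean in most bins, and at the upstream partner of Nr5a2 it ran below.

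Tfcp2l1 encodes a transcription factor that carries the LIF signal to the naive network. Its anchor had 624 and 557 CPM in B6, 564 and 539 in B6-13D2, 573 and 542 in D2, and 599 and 617 in D2-13B6. B6 overlapped with each of the other lines, and both D2-13B6 libraries were above those of D2 and B6-13D2. The background effect was 0.03 ± 0.07 (SE; adjusted p = 0.835) and the interval effect -0.11 ± 0.07 (SE; adjusted p = 0.378), so no difference beyond the spread between libraries was detected.

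The chief partner of Tfcp2l1 lay inside the gene, chr1:118670001-118680000, over introns and exons near its 3′ end. Its centre was 47.1 kb downstream of the start, but the wide promoter anchor ended at 118665000, so the edges of the anchors lay close together. The partner took 683 counts, 34.8% of outgoing counts. The octamer of the Tfcp2l1 distal window lies in its bin with the most contacts. The loop had 82.4 and 83.7 CPM in B6, 87.5 and 80.5 in B6-13D2, 84.9 and 100.4 in D2, and 64.2 and 78.5 in D2-13B6. D2 replicate 2 was the highest and D2-13B6 replicate 1 the lowest, so the extremes were both on the D2 background, and the effect was -0.04 ± 0.13 (SE; adjusted p = 0.920). Further partners were the 3′ end of the gene (chr1:118685001-118695000, 259 counts), the anchor with the start of Gli2 437 kb downstream (228 counts) and that of Clasp1 230 kb upstream (164 counts). Their background effects were -0.36 ± 0.20 (SE; adjusted p = 0.295), 0.10 ± 0.21 (SE; adjusted p = 0.853) and -0.52 ± 0.24 (SE; adjusted p = 0.194).

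Zfp42 encodes the zinc-finger protein REX1, a standard marker of the naive state. Its anchor had 92.7 and 93.8 CPM in B6, 137 and 112 in B6-13D2, 102 and 97.1 in D2, and 88.9 and 90.6 in D2-13B6. The B6-13D2 libraries were the highest and did not overlap the other lines. For Zfp42 the background effect was -0.18 ± 0.11 (SE; adjusted p = 0.275) and the interval effect 0.27 ± 0.11 (SE; adjusted p = 0.130), neither of which was called.

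The chief partner of Zfp42 was the neighbouring gene Triml2, at chr8:43175001-43190000, 124 kb downstream, with 168 counts, 36.0% of outgoing counts. Its loop had an effect of -0.46 ± 0.24 (SE; adjusted p = 0.262). Upstream, the gene-free anchors chr8:43320001-43325000 (132 counts) and chr8:43350001-43360000 (68 counts) had effects of 0.13 ± 0.27 (SE; adjusted p = 0.854) and 0.16 ± 0.39 (SE; adjusted p = 0.870). These standard errors were larger than those at Tbx3 or Sall4, as their counts were smaller.

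Sall4 encodes a zinc-finger factor that works with OCT4. Its anchor had 739 and 542 CPM in B6, 578 and 617 in B6-13D2, 476 and 465 in D2, and 619 and 612 in D2-13B6. The D2 libraries were the lowest, below all 6 others, while B6 replicate 1 stood far above its replicate. D2-13B6 lay level with B6-13D2 and within the span of B6.

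Sall4, whose anchor also holds a start of Atp9a, was called in 4 contrasts. The log2 fold change was -0.45 ± 0.11 (SE; adjusted p = 0.00421) in D2 against B6 and -0.39 ± 0.11 (SE; adjusted p = 0.0159) in D2 against D2-13B6. The interval effect was -0.25 ± 0.08 (SE; adjusted p = 0.0342) and the background effect -0.21 ± 0.08 (SE; adjusted p = 0.0447). Over all genes 10.3% were called in D2 against B6, 8.94% in D2 against D2-13B6 and 8.77% for the interval effect, and Sall4 was the 1 member called in each. Of the 2 fibroblast markers that could be tested, Col1a1, a collagen gene on chromosome 11, was also called lower for the interval effect, at -0.62 ± 0.17 (SE; adjusted p = 0.0134), and Col1a2 had 0.33 ± 0.22 (SE; adjusted p = 0.409). The share of chromosome 11 was highest in D2-13B6, and the part of that in the Col1a1 value was not tested. The summed fibroblast markers ran from 50.3 to 81.3 CPM in the 2 lines with the D2 allele and from 68.5 to 83.3 CPM in the 2 with the B6 allele, and their part in the Sall4 result was not tested.

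Each of these Sall4 calls was lost without some single libraries. Without B6 replicate 1 the D2 against B6 difference fell to -0.22 (adjusted p = 0.376), the interval effect to -0.11 (adjusted p = 0.487) and the background effect to -0.10 (adjusted p = 0.382). The D2 against B6 call was lost too at -0.47 (adjusted p = 0.0516) without D2 replicate 1 and -0.45 (adjusted p = 0.0761) without D2 replicate 2. The D2 against D2-13B6 call was lost at -0.38 (adjusted p = 0.172) without D2 replicate 1, -0.35 (adjusted p = 0.194) without D2 replicate 2, -0.38 (adjusted p = 0.116) without D2-13B6 replicate 1 and -0.39 (adjusted p = 0.124) without D2-13B6 replicate 2. The interval call was lost at -0.22 (adjusted p = 0.108) without B6-13D2 replicate 1, -0.24 (adjusted p = 0.128) without D2 replicate 1, -0.23 (adjusted p = 0.174) without D2 replicate 2, -0.24 (adjusted p = 0.115) without D2-13B6 replicate 1 and -0.25 (adjusted p = 0.110) without D2-13B6 replicate 2. The background call was lost at -0.18 (adjusted p = 0.135) without B6-13D2 replicate 2, -0.23 (adjusted p = 0.0825) without D2 replicate 1, -0.22 (adjusted p = 0.103) without D2 replicate 2, -0.21 (adjusted p = 0.110) without D2-13B6 replicate 1 and -0.20 (adjusted p = 0.128) without D2-13B6 replicate 2, and without B6 replicate 2 it was larger, -0.32 (adjusted p = 0.000347). Other settings lost some of these calls too. The D2 against D2-13B6 call was lost with library totals alone, at -0.29 (adjusted p = 0.0846), with a trend on abundance removed, at -0.19 (adjusted p = 0.279), and with outgoing loops alone, at -0.29 (adjusted p = 0.113). The interval call was lost with that trend removed, at -0.20 (adjusted p = 0.0530), with DESeq2, at -0.23 (adjusted p = 0.124), and with outgoing loops alone, at -0.16 (adjusted p = 0.251). The background call was lost with library totals alone, at -0.18 (adjusted p = 0.0730), with DESeq2, at -0.21 (adjusted p = 0.132), and with outgoing loops alone, at -0.20 (adjusted p = 0.0568).

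At the level of single loops the Sall4 calls were those of contacts inside the anchor, which had 333 and 215 CPM in B6, 228 and 250.3 in B6-13D2, 178 and 199 in D2, and 279 and 251 in D2-13B6. Both D2 libraries were below the other 6. The difference was -0.56 ± 0.14 (SE; adjusted p = 0.00819) in D2 against B6, -0.49 ± 0.14 (SE; adjusted p = 0.0454) in D2 against D2-13B6 and -0.35 ± 0.10 (SE; adjusted p = 0.0350) for the interval effect. Without B6 replicate 1 the first was -0.21 (adjusted p = 0.733) and the interval effect -0.17 (adjusted p = 0.665). The first was lost too at -0.48 (adjusted p = 0.205) without D2 replicate 1 and -0.63 (adjusted p = 0.0534) without D2 replicate 2. The difference from D2-13B6 was lost at -0.42 (adjusted p = 0.467) without D2 replicate 1, -0.57 (adjusted p = 0.181) without D2 replicate 2, -0.40 (adjusted p = 0.474) without D2-13B6 replicate 1 and -0.58 (adjusted p = 0.110) without D2-13B6 replicate 2. The interval effect was lost too at -0.32 (adjusted p = 0.172) without B6-13D2 replicate 1, -0.32 (adjusted p = 0.223) without D2 replicate 1, -0.39 (adjusted p = 0.0945) without D2 replicate 2 and -0.31 (adjusted p = 0.236) without D2-13B6 replicate 1. With DESeq2 the 3 differences were not called, at -0.55 (adjusted p = 0.131), -0.47 (adjusted p = 0.110) and -0.34 (adjusted p = 0.109). With no filter on low counts the first was -0.56 (adjusted p = 0.197) and the interval effect -0.35 (adjusted p = 0.724). The difference from D2-13B6 was also lost with library totals alone, at -0.45 (adjusted p = 0.0927), with RLE factors, at -0.47 (adjusted p = 0.0668), and with a trend on abundance removed, at -0.29 (adjusted p = 0.418).

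The chief distal partner of Sall4 was a gene-free anchor 79.6 kb upstream, chr2:168835001-168860000, 33.3 kb from Zfp64, with 939 counts, 32.6% of outgoing counts. It had 133 and 83.7 CPM in B6, 123 and 117 in B6-13D2, 107 and 74.3 in D2, and 109 and 123 in D2-13B6. Its lowest values, in D2 replicate 2 and B6 replicate 2, came from both backgrounds, and the interval and background effects, -0.12 ± 0.12 (SE; adjusted p = 0.814) and -0.16 ± 0.12 (SE; adjusted p = 0.506), were not called. Zfp64 itself (chr2:168945001-168990000, 423 counts) and an anchor in Atp9a (chr2:168685001-168705000, 352 counts) followed, with background effects of -0.13 ± 0.16 (SE; adjusted p = 0.731) and -0.27 ± 0.18 (SE; adjusted p = 0.413).

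Tcl1 encodes a coactivator of the kinase AKT and is a known target of OCT4. Its anchor had 36.4 and 31.7 CPM in B6, 33.1 and 31.5 in B6-13D2, 38.9 and 21.4 in D2, and 29.2 and 25.4 in D2-13B6. The replicates of D2 were the highest and the lowest of the 8 libraries. Tcl1 had a background effect of -0.20 ± 0.19 (SE; adjusted p = 0.500) and an interval effect of 0.04 ± 0.19 (SE; adjusted p = 0.940). Its chief partner, chr12:105070001-105105000, 135 kb downstream with no gene, had 53 counts and an effect of -0.66 ± 0.44 (SE; adjusted p = 0.408). The next, chr12:105255001-105260000, 34.7 kb upstream, had 25 counts.

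Each of the 40 named partner anchors was also summed over all its loops, a measure added after the data were seen that contains the member's own loop. For the background effect 38 could be tested and 13 were called, where 24.8% of all anchors were. Of the 13, 3 were higher on the D2 background, against 11.9% of all anchors, and 10 lower, against 13%. Those higher were the Tbx3 upstream anchor, at 0.30 ± 0.08 (SE; adjusted p = 0.00173), and the chief and next Esrrb partners, at 0.21 ± 0.07 (SE; adjusted p = 0.0232) and 0.36 ± 0.07 (SE; adjusted p = 6.05e-05). Lower were, among others, the chief partners of Nr5a2, at -0.81 ± 0.19 (SE; adjusted p = 0.000448), Sall4, at -0.25 ± 0.09 (SE; adjusted p = 0.0360), and Tcl1, at -0.33 ± 0.08 (SE; adjusted p = 0.00107). The single loops of the Esrrb, Sall4 and Tcl1 partners were not called, and the next Nr5a2 partner had 0.09 ± 0.08 (SE; adjusted p = 0.451).

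**Figure D3:**
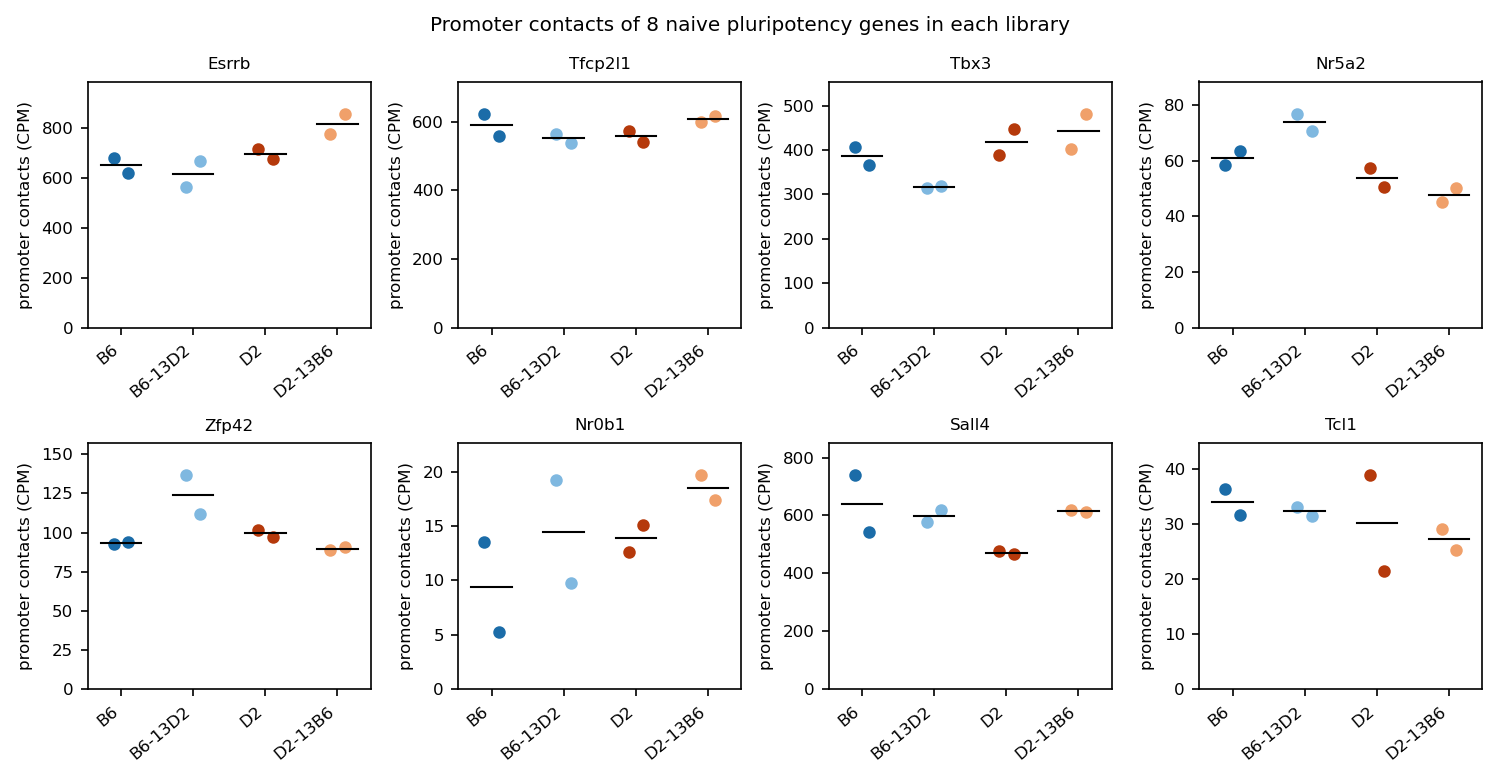
Summed contacts of the anchor of each of the 8 genes (CPM, vertical axis from 0) in the 4 lines. Points are libraries, 2 per line, and horizontal lines their mean. Esrrb is highest in D2-13B6, at 776 and 859 CPM, and Sall4 lowest in D2, at 476 and 465.

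The sizes of the effects at the 8 genes were set beside those of all tested genes. For the background effect the median absolute log2 fold change of the members was 0.23, against 0.20 over all 11612 genes, and 4 of 8 values were positive. For the interval effect the values were 0.17 and 0.15, again with 4 of 8 positive.

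In B6-13D2 against B6 edgeR called 0 of the 8 genes and DESeq2 0, with 2, Tbx3 and Zfp42, below an unadjusted 0.05, and 5.68% of all genes were called by edgeR. The interaction tests whether the interval effect differs between backgrounds. Here edgeR called 0 of the 8 and DESeq2 0, with 0 below an unadjusted 0.05, and 6.98% of all genes were called. Without B6 replicate 1 the interaction was called for Sall4, at -0.50 (adjusted p = 0.0235).

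With outgoing loops alone the background effect was called for Tbx3 only, at 0.24 (adjusted p = 0.0218), where 22.4% of genes were called. D2 against B6 was then called for Sall4 only, at -0.36 (adjusted p = 0.0398), where 9.37% were.

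Loop by loop, the background effect was called for 4 of the 68 tested member loops, 5.88%, against 8.85% of all 44706 tested loops. These were the Esrrb and Tbx3 contacts inside the anchor and the Tbx3 upstream loop, all higher on the D2 background, as were 4.28% of all loops, and the Nr5a2 upstream loop, lower, as were 4.57%. D2 against B6, D2 against D2-13B6 and the interval effect each called 1 of the 68, the Sall4 contacts inside the anchor, against 2.65%, 0.91% and 0.989% of all loops. In B6-13D2 against B6 and in the interaction edgeR called 0 of 68 and DESeq2 0, with 6 and 1 below an unadjusted 0.05, against 0.879% and 0.602% of all loops called by edgeR.

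**Figure D4:**
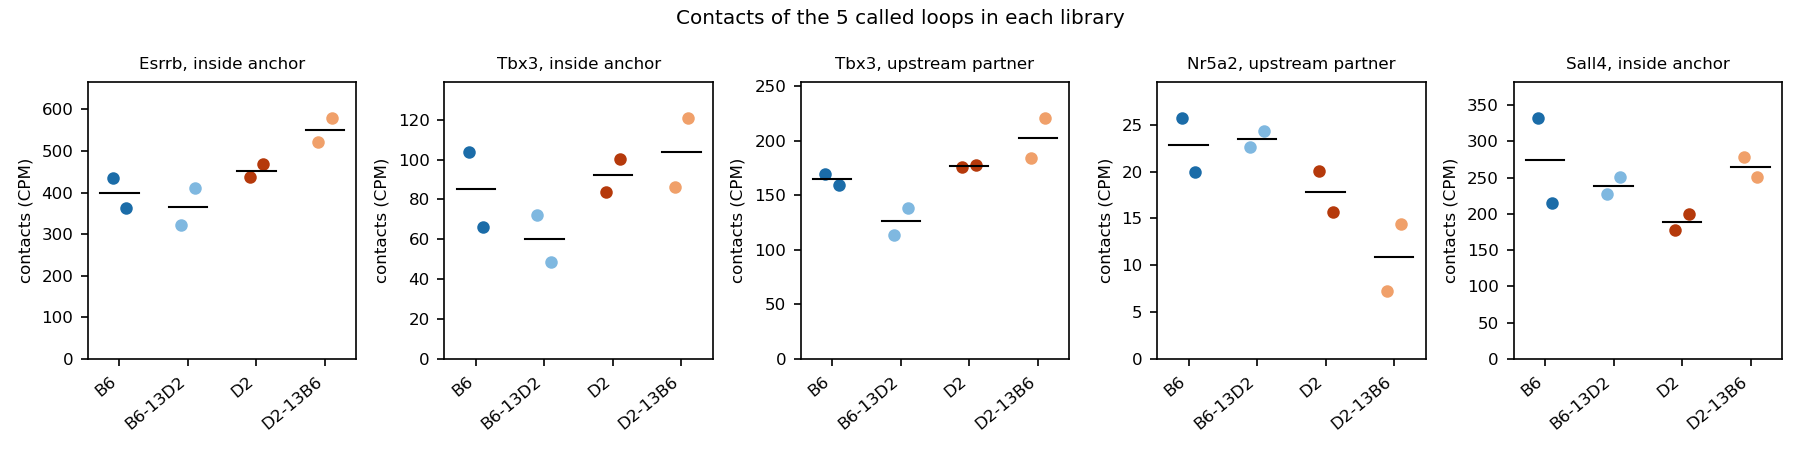
Contacts (CPM, vertical axis from 0) of the 5 called loops in the 4 lines. Points are libraries, 2 per line, and horizontal lines their mean. The Esrrb contacts inside the anchor and the Tbx3 upstream loop separate the backgrounds, and the Sall4 contacts inside the anchor are lowest in D2, at 178 and 199 CPM.

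**Figure D5:**
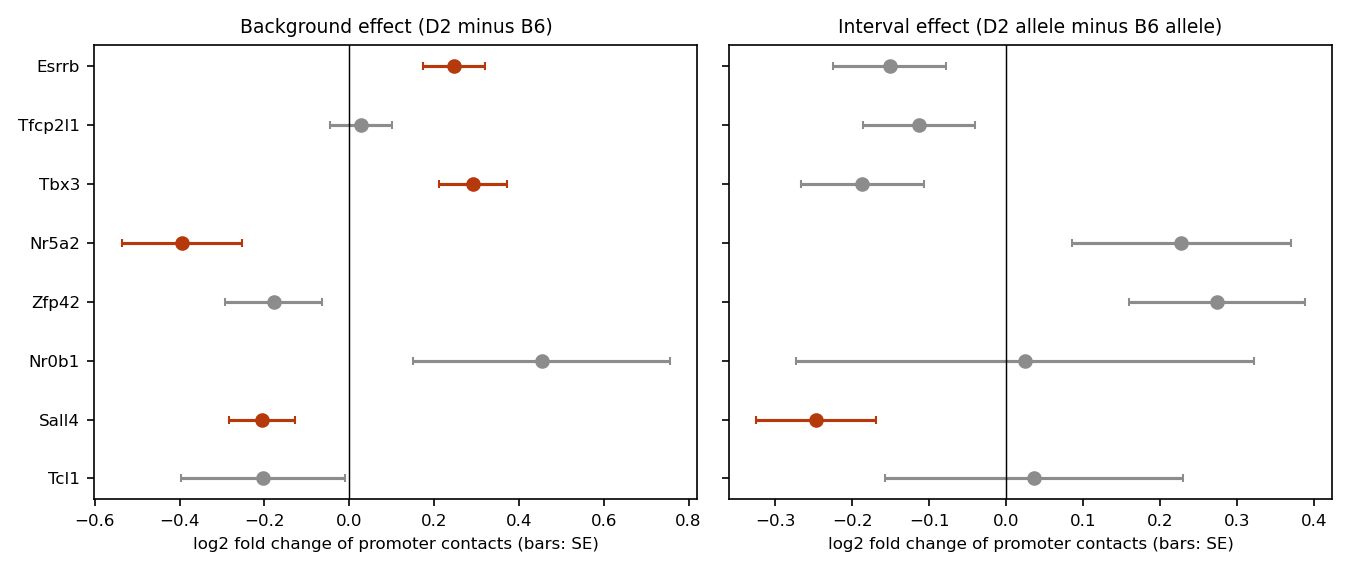
Background effect (left) and interval effect (right) on the summed contacts of each gene, as log2 fold changes (horizontal axis) with bars of 1 SE. Red points were called at an adjusted p below 0.05. Esrrb and Tbx3 lie right of 0 and Nr5a2 and Sall4 left of it for the background effect, and Sall4 alone is called for the interval effect.

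Other genes of the network were read from a list of 24 further pluripotency factors, all of which could be tested. For the background effect 7 of the 24 were called higher on the D2 background, where 12.5% of all genes were, and 1 lower, where 11.7% were, with a list median of 0.14 against 0.02 over all genes. The 4 with the smallest p among those called higher were Tdgf1, the Nodal coreceptor, at 0.53 ± 0.08 (SE), Sox2 at 0.45 ± 0.08, Trim28 at 0.31 ± 0.08 and Socs3, an inhibitor of LIF signalling, at 0.35 ± 0.09. Klf4 and Fbxo15 were also called higher. Among these named genes only Socs3 was lower in D2 against B6, at -0.16 ± 0.14 (SE; adjusted p = 0.563, not called), and D2-13B6 was its highest line. Lin28a, an RNA-binding protein, was lower, at -0.33 ± 0.10. Of the core genes, Pou5f1, at -0.05 ± 0.07, and Nanog, at 0.14 ± 0.07, were not called. In D2 against D2-13B6, 5 of the list were called, all lower, where 8.94% of all genes were called. For the interval effect 2 were called, the LIF receptor gene Lifr higher and Socs3 lower, where 8.77% of all genes were. Socs3 lies on chromosome 11, whose share was highest in D2-13B6, and the part of that in its values was not tested.

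Of 12 genes of the formative and primed states, which follow naive pluripotency, Fgf5, Pou3f1, Sox3 and Tcf15 had no loop, and 8 were tested. Lef1 was higher on the D2 background by 1.12 ± 0.19 (SE), with Cdh2 and the neighbours Zic2 and Zic5, which share 1 anchor, also called higher. So 4 of the 8 were called higher, where 12.5% of all genes were, and 0 lower, where 11.7% were. In this count Zic2 and Zic5 enter apart although their values are 1 measurement. For the interval effect 1 of the 8, Dnmt3a, was called, lower with the D2 allele, where 8.77% of all genes were called. Of the tested fibroblast markers above, Col1a1 was called lower too, while Col1a2 had a positive value that was not called. Their part in the Dnmt3a result was not tested.

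Genes on other chromosomes whose anchor sums ran most like those of a called member across the 8 libraries were looked up by Pearson's r of log2(CPM + 1). They were 2810021J22Rik (0.97) and Vps51 (0.97) for Esrrb, Psmd2 (0.98) and Zfp777 (0.96) for Tbx3, Ppa1 (0.99) and Asah1 (0.99) for Nr5a2, and Chadl (0.97) and Rangap1 (0.97) for Sall4. 2810021J22Rik lies on chromosome 11, whose share was highest in D2-13B6, the line in which Esrrb was highest too, and the part of that in its likeness was not tested. Each is among the closest of 11612 genes over 8 points that share libraries and their scaling.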

How the data were processed

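The deposited values were whole-number counts per loop, not normalized by the authors, in a table of the whole series and in 1 file per library. Per the submitters' processing notes, BWA 0.7.18, SAMtools 1.19.2, edgeR 3.34.1 and mm10 were used, without their role, and the loop caller is not given in the sources used here. Per the labels' protocols, libraries were read as 150-bp pairs. The number of columns of samples outside the series was 0. Counts carried no molecular identifiers.

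Starts came from GENCODE M21. Loops reaching 5 counts, and sums per protein-coding gene reaching 10, in 2 or more libraries were fitted over all 8 libraries with edgeR 4.0.16 (quasi-likelihood, TMM, 1 mean per line) in R 4.3.3, with Benjamini-Hochberg adjustment over 44706 loops or 11612 genes. DESeq2 1.42.0 was an alternative. On simulated counts for the background effect over 11612 genes, 34 of 100 genes changed 1.3-fold and 88 of 100 changed 2-fold were called. For loops over 44706, 1 and 26 of 100 were. The simulated counts had 1 common dispersion and no other difference between lines. The changed features were drawn from all count levels, so these shares are not the power at the 8 members.

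For each member, contacts inside its anchor, its 5 strongest partners and every called loop could be named. For each called member the 2 genes of most like pattern were named. One called gene of the pluripotency list is counted but left unnamed. Members and lists were chosen with earlier results of these data known. Replicates of a line differed by more than counting noise (chi-square over its degrees of freedom 1.05 to 1.20) and were kept apart.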

Additional observations from a re-analysis of the deposited data

How the results depend on the processing

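The call for Esrrb contacts inside the anchor held under all 9 alternatives. The Tbx3 gene call held under all 10, apart from the left-out libraries. The sums over all loops at the Nr5a2 and Tbx3 partner anchors, chosen after seeing the data, contain the called loops themselves and are no separate check of them. DESeq2 lowered the member genes called for the background effect from 4 to 2 (Esrrb and Tbx3) and the member loops from 4 to 1 (Esrrb). It called 0 genes and 0 loops for the interval effect and 0 loops for D2 against B6 and D2 against D2-13B6. With no filter on low counts, 1 loop was called for the background effect and 0 for D2 against B6 and the interval effect. With outgoing loops alone, 1 gene was called for the background effect and 0 for the interval effect and D2 against D2-13B6. In D2 against D2-13B6, library totals alone gave 0 genes and 0 loops, RLE factors 0 loops, a trend on abundance removed 0 genes and 0 loops, and a scaling factor per chromosome 2 genes. In B6-13D2 against B6, library totals alone gave 1 gene, and a trend on abundance removed 1 gene and 1 loop. A trend on abundance removed gave 0 genes for the interval effect. The cause was not tested.

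Leaving libraries aside, directions turned only for values that were not called. They turned with outgoing loops alone at Esrrb (0.00362) in B6-13D2 against B6, Tfcp2l1 (0.0143) in D2 against D2-13B6, Tfcp2l1 (-0.182) for the background effect, Tfcp2l1 (0.0658) for the interaction and Zfp42 (-0.0770) in D2 against B6. They turned with library totals alone at Esrrb (0.00645), Tfcp2l1 (0.147) and Nr5a2 (0.0704) for the interaction and Tbx3 (0.0107) in D2 against D2-13B6. They turned with a trend on abundance removed at Esrrb (0.185), Tfcp2l1 (0.288) and Sall4 (0.0229) for the interaction, Tfcp2l1 (0.0744) and Tbx3 (0.0597) in D2 against D2-13B6, Nr0b1 (-0.00383) for the interval effect and Tcl1 (0.0153) in B6-13D2 against B6. They turned with a stricter filter on low counts at Tfcp2l1 (0.0577) for the interaction. They turned with no 5-kb margin at Tfcp2l1 (0.0129) for the interaction. They turned with a scaling factor per chromosome at Nr5a2 (-0.0148) in D2 against D2-13B6 and Nr0b1 (-0.0947) and Tcl1 (-0.00184) for the interval effect.

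The replicate numbers do not pair the libraries: deviations of same-numbered libraries correlated at -0.19 to 0.04 over genes. A replicate block lost the Sall4 gene calls for the interval (adjusted p = 0.0698) and background (adjusted p = 0.0757) effects, and those of Sall4 contacts inside the anchor in D2 against D2-13B6 (adjusted p = 0.107) and for the interval effect (adjusted p = 0.101). It gave 3 genes and 4 loops for the background effect, 0 genes and 0 loops for the interval effect, 0 loops and 1 gene for D2 against D2-13B6, and changed no other count.

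Leaving out 1 library at a time gave 0 to 3 genes (0 without D2-13B6 replicate 2, 1 without D2 replicate 2) and 2 to 4 loops for the background effect. It gave 0 to 1 genes and 0 to 2 loops in D2 against B6, 0 to 1 of each in D2 against D2-13B6 and for the interval effect, 0 to 1 genes for the interaction, and 0 of each in B6-13D2 against B6. Uncalled values that turned direction without 1 library were Esrrb (-0.209 to 0.0409), Nr0b1 (-0.0180 to 1.35), Sall4 (-0.297 to 0.138) and Tcl1 (-0.170 to 0.0161) in B6-13D2 against B6, Tfcp2l1 (-0.0244 to 0.0501) for the background effect, Tfcp2l1 (-0.0781 to 0.0689), Nr5a2 (-0.170 to 0.00519) and Tcl1 (-0.233 to 0.617) for the interaction, Tbx3 (-0.00945 to 0.203) and Tcl1 (-0.680 to 0.170) in D2 against B6, Tbx3 (-0.209 to 0.0525) and Tcl1 (-0.322 to 0.528) in D2 against D2-13B6 and Nr0b1 (-0.220 to 0.474) and Tcl1 (-0.206 to 0.219) for the interval effect.

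Depth limited the tests of single loops: Nr0b1 and Tcl1 had 1 and 2 testable loops.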
